A study of Mus musculus with 12 samples.

Results

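The SLC25 family of mitochondrial carriers was described in heart muscle cells of dystrophic mice, as the table rows whose symbol is Slc25a followed by a number and whose level reached at least 1 TPM in at least 3 of the 12 libraries. TPM gives a transcript's share of its library, corrected for gene length, so levels can be compared between genes. Of 18530 genes in the table, 45 carried such a symbol and 41 of them were members. The members nearest to the limit from the inside were Slc25a31 and Slc25a2, each at 1 TPM or more in 5 libraries, and Slc25a18, in 6 libraries. The nearest from the outside was Slc25a53, which reached 1 TPM in 0 libraries and averaged 0.236 TPM. The other symbols left out were Slc25a43 (mean 0.0970 TPM), Slc25a41 (mean 0.0283 TPM) and Slc25a21 (mean 0.00218 TPM). The rule for a row used name and level alone, and no comparison between groups. Slc25a31 nevertheless entered only through mdx saline, as all libraries of that group were among its 5.

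Poly-A RNA of cardiomyocytes isolated from the heart was sequenced in 4 groups of 3 libraries, formed by 2 genotypes (mdx and mdx:Utrn+/-) that each received either saline or PB1046. All 4 groups carried the mdx mutation, which removes dystrophin. The mdx:Utrn+/- groups in addition had a single intact allele of Utrn, which encodes the dystrophin homolog utrophin. No group had normal dystrophin. PB1046, a long-acting analog of vasoactive intestinal peptide, or saline was given every other day between 4 and 12 weeks of age, and hearts were taken at 14 weeks. The protocol lists 0.75 and 1.5 mg/kg, and the treated libraries are labelled as high dose. The labels state neither sex nor whether each library was an animal of its own, so p-values measure only the spread between these samples. The study looked for transcripts that differ in NF-kB signaling and in the cAMP, PKA and CREB pathway.

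SLC25 proteins sit in the inner mitochondrial membrane, where each exchanges or imports one class of small molecule between the cytosol and the matrix. In the heart, which makes most of its ATP by oxidative phosphorylation, the ADP/ATP carriers and the phosphate carrier supply the substrates of ATP synthase and release its product. Other members bring in reducing equivalents, fatty acyl groups, amino acids, cofactors and iron, and a few proteins of the family act in other membranes.

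Values called scaled TPM are deposited TPM over a factor for each library, a trimmed mean of log ratios (0.827 to 1.28). Libraries held 7234100 to 25458194 reads, recovered from the steps of the TPM values. Cardiomyocyte markers (10 genes, among them Myh6, Tnnt2 and Ckm) summed to 122178 to 164147 TPM in a library, and all 10 were detected in every library. Markers of other cells were also present: 10 endothelial genes summed to 226 to 1510 TPM, 8 fibroblast genes to 174 to 1023 TPM and 8 macrophage genes to 118 to 843 TPM. Utrn was 9.82 ± 1.29 and 13.8 ± 6.71 TPM in mdx with saline and PB1046, and 4.97 ± 1.51 and 6.84 ± 2.82 TPM in mdx:Utrn+/- with saline and PB1046 (SD, n = 3 each).

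The family was dominated by very few carriers. Slc25a4, the ADP/ATP carrier of heart and skeletal muscle, averaged 11378 TPM and made up 70.9% to 81.3% of the summed TPM of the 45 rows in a library (median 74.9%). The 6 highest members together, Slc25a4, Slc25a3, Slc25a11, Slc25a5, Slc25a20 and Slc25a12, took 93.4% to 96.1%. The sum of the family was 12356 to 18665 TPM per library. By mean level, 2 members stood at 1000 TPM or more, 6 between 100 and 1000, 17 between 10 and 100, 14 between 1 and 10, and 2 below 1 TPM. The upper end of that order was separated: the lowest library of Slc25a4 (7184 scaled TPM) lay above the highest of Slc25a3 (2418), and the lowest of Slc25a3 (1207) above the highest of Slc25a11 (836). Below that, neighbours overlapped, as Slc25a11 (412 to 836 scaled TPM) did with Slc25a5 (261 to 634).

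**Figure D1:**
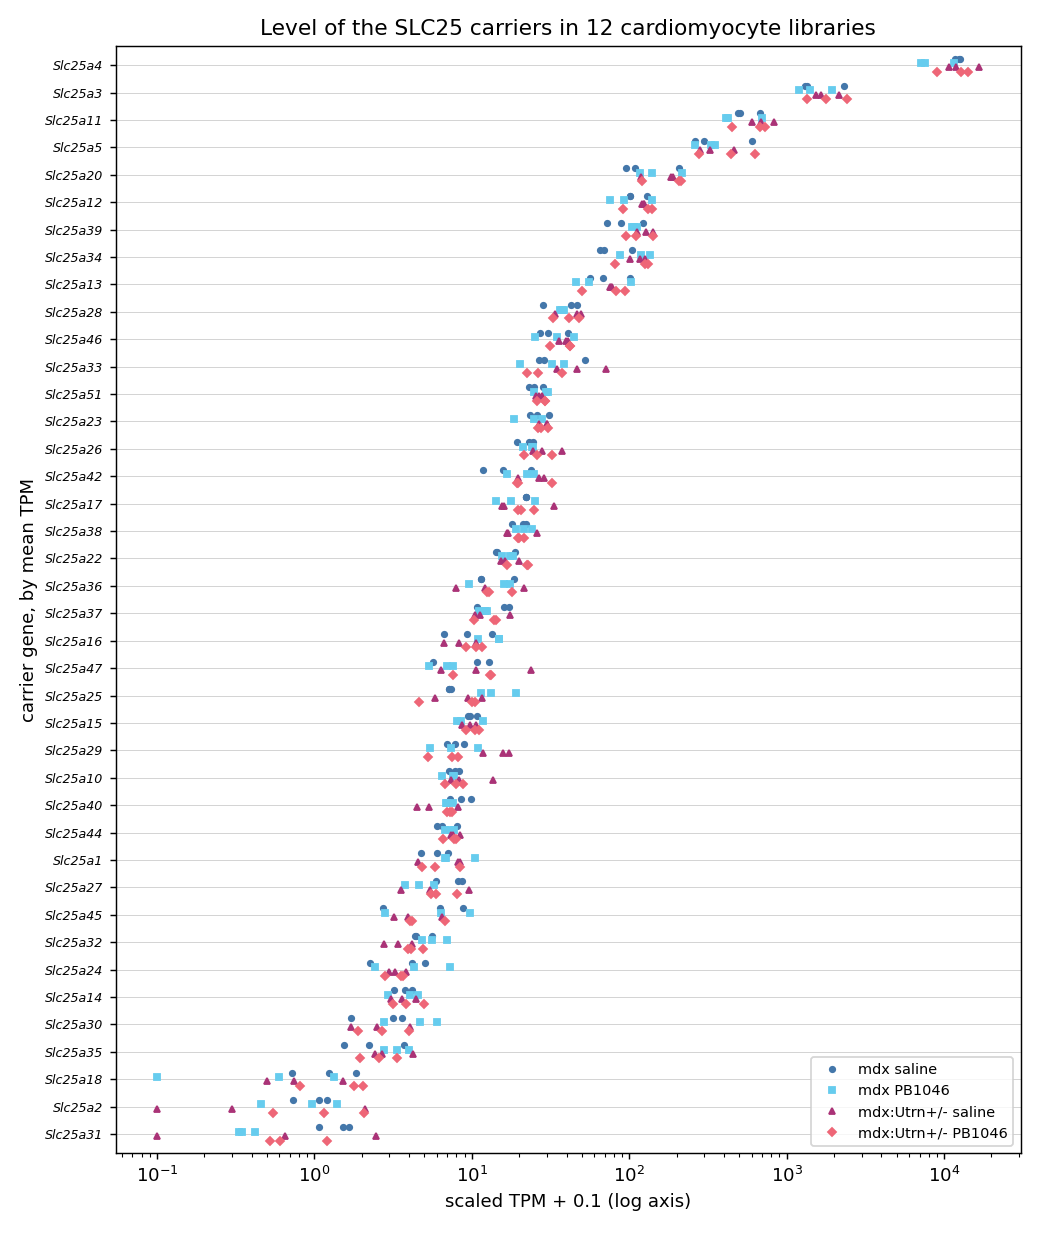
Level of the carriers in each of the 12 libraries, as scaled TPM + 0.1 on a log axis, with genes ordered from the highest mean TPM at the top and a colour and symbol for each group. Slc25a4 averaged 11378 TPM, and the points of the 4 groups overlap in most rows.

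No carrier passed the threshold between any groups. In the limma fit over 12798 genes, with a Benjamini-Hochberg adjusted p under 0.05 as the threshold, 0 of 41 carriers passed in each of 7 comparisons, and the background of all genes passing was 0 % in each. The smallest adjusted p of a carrier in this fit was 0.837, between genotypes under saline, where Slc25a29 shared it with others. Differences are therefore given as sizes with 95% intervals, and unadjusted p values describe rank only. The within-group SD of log2(scaled TPM + 1) was 0.12 to 0.60 over the members with a median of 0.32, and its median over all genes tested was also 0.32. Slc25a51 (0.12), Slc25a44 (0.13) and Slc25a15 (0.17) were the steadiest, and Slc25a45 (0.60), Slc25a47 (0.58) and Slc25a2 (0.54) the most variable.

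On the scaled values the family was split about evenly between higher and lower with PB1046. In mdx, 20 of 41 carriers were higher with PB1046 than with saline and 21 lower (median log2 difference -0.04, and 0.01 over all genes). An unadjusted p under 0.05 was reached by 2 carriers (3.09 % of all genes). The 3 treated libraries lay wholly above the 3 saline libraries for 1 carrier (4.23 % of all genes) and wholly below for 3 (4.14 %). Slc25a31 was counted both at that p and as wholly below, although it was a member only through its mdx saline level. In mdx:Utrn+/-, 21 were higher and 20 lower (median 0.00, and -0.02 over all genes), 2 reached an unadjusted p under 0.05 (2.06 %), 0 lay wholly above (2.77 %) and 1 wholly below (2.91 %). On the deposited TPM 3 lay wholly above and 3 below in mdx (6.56 % and 2.06 % of all genes), and 3 above and 1 below in mdx:Utrn+/- (5.14 % and 1.06 %). Averaged over the genotypes, 23 were higher and 18 lower (median 0.02), with 1 at an unadjusted p under 0.05 (2.57 %). Without scaling 26, 35 and 33 of 41 carriers were higher in these 3 comparisons, beside 72.1%, 71.8% and 78.8% of all genes, whose median moved to 0.14, 0.15 and 0.14. In the difference of the PB1046 response between genotypes, mdx:Utrn+/- minus mdx, 3 carriers reached it (2.28 %). These shares of the 41 members rest on 0 to 3 genes each.

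More carriers were higher than lower in mdx:Utrn+/- cardiomyocytes on the scaled values, and this order turned over without scaling. Under PB1046, 28 of 41 carriers (68.3%) were higher in mdx:Utrn+/- than in mdx, against 50.7% of all genes (median log2 difference 0.10, and 0.00 over all genes). Here 2 carriers reached an unadjusted p under 0.05 (1.67 % of all genes), 2 lay wholly above (2.48 %) and 1 wholly below (3.33 %). Under saline 23 were higher (56.1%) and 18 lower, near the 54.7% of all genes that were higher (median 0.08, and 0.03 over all genes). Here 2 reached an unadjusted p under 0.05 (4.15 %), 1 lay wholly above (5.81 %) and 1 wholly below (3.97 %). Averaged over treatments 27 were higher (65.9%, against 51.0% of all genes) and 14 lower, with 1 at an unadjusted p under 0.05 (3.7 %). On the deposited TPM without the factors, 13, 11 and 9 of 41 carriers were higher in these 3 comparisons, beside 19.9%, 25.8% and 17.3% of all genes, whose median was then -0.20, -0.20 and -0.21. Wholly above and below were then 1 and 3 carriers under PB1046 (0.922 % and 6.33 % of all genes) and 1 and 5 under saline (0.703 % and 15.1 %). In the same PB1046-treated comparison on the scaled values, 10 of 10 cardiomyocyte markers were higher in mdx:Utrn+/- (median 0.32). There 8 of 8 fibroblast and 8 of 8 macrophage markers were lower (medians -0.77 and -0.51). The macrophage marker sums overlapped, at 168 to 404 TPM in mdx:Utrn+/- PB1046 and 289 to 838 TPM in mdx PB1046. The part of these markers in the carriers' direction was not tested. In bulk RNA fewer cells of a type and less RNA per cell cannot be told apart. The comparisons under each treatment share libraries with those of PB1046 in each genotype.

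**Figure D2:**
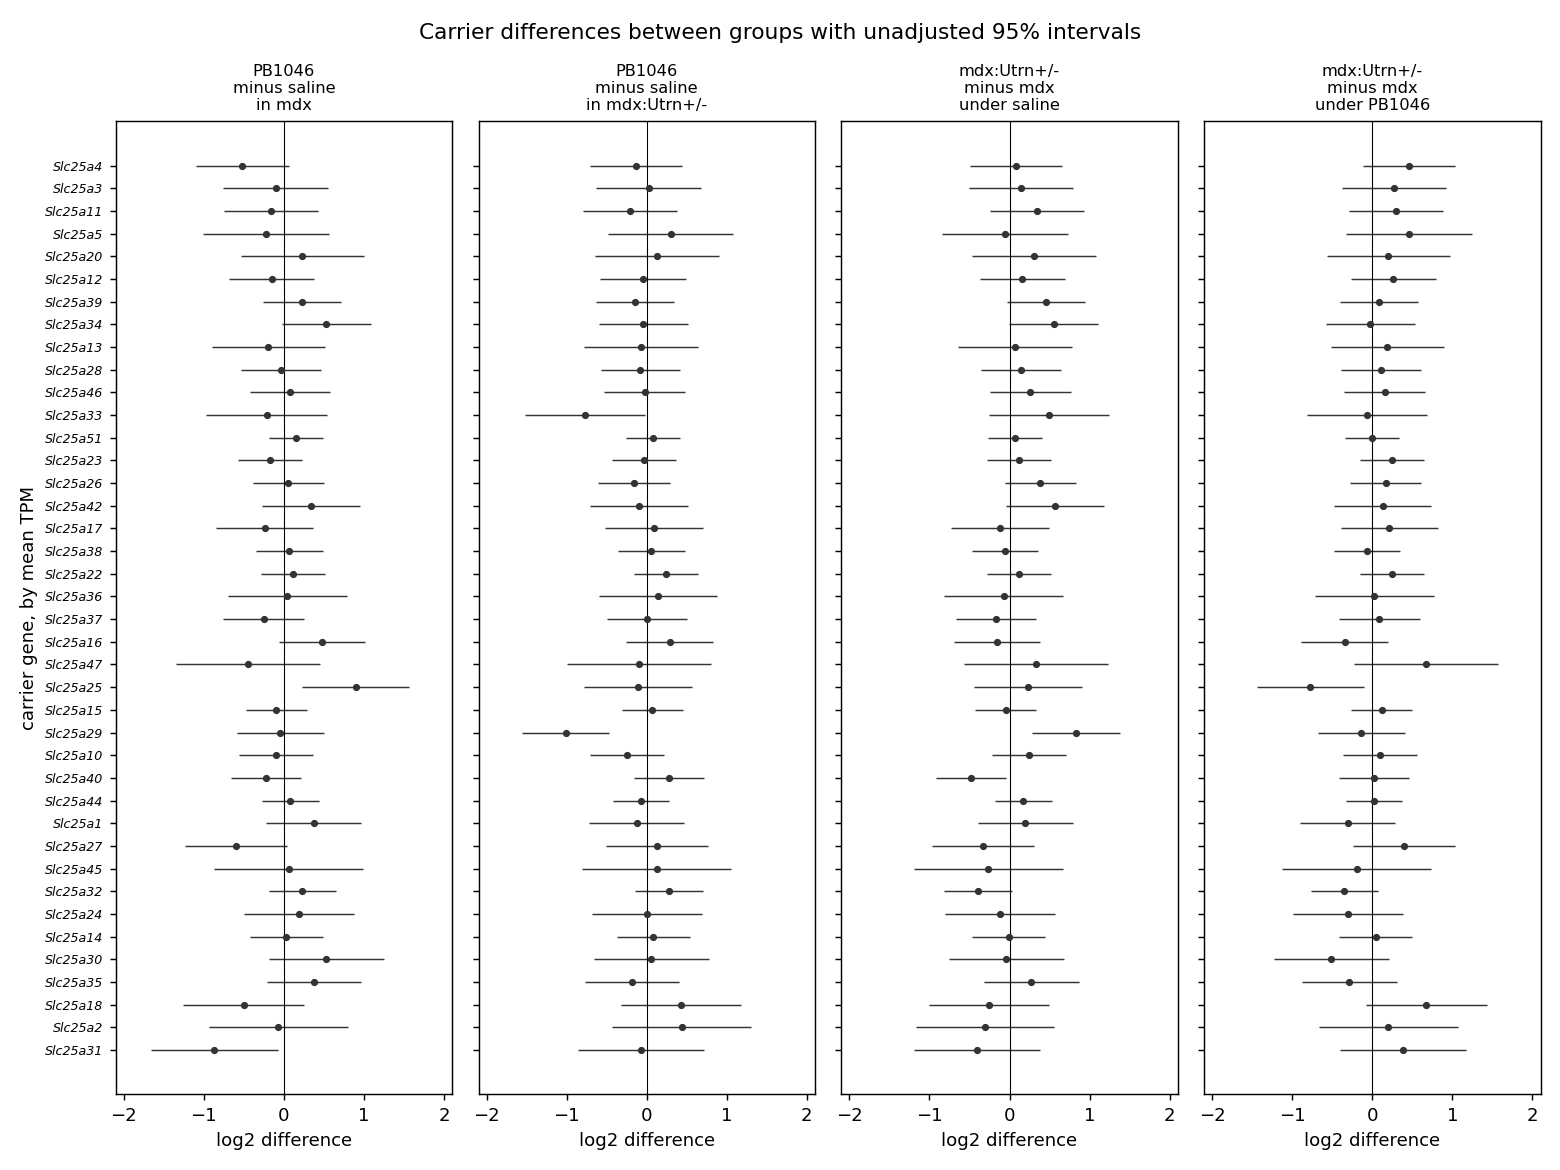
Log2 difference of each carrier (points) with its unadjusted 95% interval (bars) in 4 comparisons, with genes ordered by mean TPM from the top. Most intervals cross 0, and the largest sizes are those of Slc25a29 (-1.01) with PB1046 in mdx:Utrn+/- and Slc25a25 (0.90) with PB1046 in mdx.

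The carriers of adenine nucleotides and phosphate held the highest levels. Slc25a4 (chr8:46207341-46211009, mm10, minus strand) was 12385, 11761 and 12605 scaled TPM in the 3 mdx saline libraries, 11552, 7553 and 7184 in mdx PB1046, 11935, 10765 and 16775 in mdx:Utrn+/- saline, and 12770, 9009 and 14229 in mdx:Utrn+/- PB1046. The mdx PB1046 libraries all lay below the mdx saline libraries, replicate 1 only slightly, and the other groups overlapped. The log2 difference with PB1046 was -0.52 in mdx (95% interval -1.09 to 0.06) and -0.13 in mdx:Utrn+/- (-0.71 to 0.44). Without scaling these were -0.36 and 0.06. The cardiomyocyte marker sum was 161293, 134651 and 122178 TPM in mdx PB1046 replicates 1, 2 and 3, against 148557 to 154232 TPM in mdx saline. Whether that sum bears on Slc25a4 was not tested.

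Slc25a3, the phosphate carrier that also takes copper into the matrix, was 2313, 1349 and 1312 scaled TPM in mdx saline, 1935, 1411 and 1207 in mdx PB1046, 1531, 1667 and 2155 in mdx:Utrn+/- saline and 1770, 1349 and 2418 in mdx:Utrn+/- PB1046. Slc25a5, the ADP/ATP carrier that most tissues share, was 607, 298 and 264 in mdx saline, 348, 333 and 261 in mdx PB1046, 281, 325 and 460 in mdx:Utrn+/- saline and 443, 279 and 634 in mdx:Utrn+/- PB1046 on the same scale. All groups overlapped for both genes, and the libraries with the highest Slc25a5 were mdx saline 1 and mdx:Utrn+/- PB1046 3. Reads of Slc25a5 could also come from its pseudogene Slc25a5-ps, so its level is uncertain. Slc25a4 exceeded Slc25a5 by 35.9 ± 14.1 fold in mdx saline, 27.8 ± 5.23 in mdx PB1046, 37.3 ± 4.71 in mdx:Utrn+/- saline and 27.8 ± 4.98 in mdx:Utrn+/- PB1046 (SD, n = 3 each). This ratio does not depend on the scaling of a library. Exchanging treatments within each genotype gave a mean log2 difference of -0.36 with PB1046 (two-sided exact permutation test over 400 relabelings, p = 0.115, adjusted over 6 ratio tests 0.345, smallest possible p 0.005). The difference between genotypes was 0.07 (exact permutation p = 0.785).

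Slc25a31, a further ADP/ATP carrier known from testis, was scarce. It was 1.42, 0.979 and 1.56 scaled TPM in mdx saline, 0.318, 0.246 and 0.231 in mdx PB1046, 0, 0.553 and 2.36 in mdx:Utrn+/- saline and 0.505, 0.422 and 1.10 in mdx:Utrn+/- PB1046. The mdx groups did not overlap, and mdx:Utrn+/- saline spanned the whole range. These levels came from 25 to 46 reads in mdx saline and 4 to 5 reads in mdx PB1046. The library at 0 reads allows up to 0.160 TPM (3 reads, counting error only). This limit is in deposited TPM, before division by that library's factor of 0.828, so it is higher as scaled TPM. With PB1046 in mdx the difference was -0.87 on the log2(scaled TPM + 1) scale. All mdx saline libraries were among the 5 at 1 TPM or more, and without them Slc25a31 would not be a member. The level filter therefore favoured this difference, and no p is attached to it. At this level the added 1 governs the size: it was -1.94 with 0.1 added and -0.26 with 5 added, and -2.19 in limma-voom on the recovered reads.

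The calcium-regulated ATP-Mg/phosphate carriers differed from each other in level. Slc25a23 averaged 26.8 TPM, Slc25a25 10.1 TPM and Slc25a24 3.86 TPM, and the counterpart Slc25a41 was not a member. Slc25a25 (chr2:32414487-32451470, minus strand) was 7.27, 7.08 and 7.08 scaled TPM in mdx saline, 13.2, 11.3 and 18.9 in mdx PB1046, 5.75, 9.37 and 11.5 in mdx:Utrn+/- saline and 9.97, 10.4 and 4.56 in mdx:Utrn+/- PB1046. The mdx saline libraries were nearly equal, the mdx PB1046 libraries all lay above them, and the mdx:Utrn+/- groups overlapped. The log2 difference with PB1046 was 0.90 in mdx (95% interval 0.23 to 1.57, unadjusted p = 0.0131, limma adjusted p = 1.00) and -0.11 in mdx:Utrn+/- (-0.78 to 0.56), where the value was 0.06 without scaling. The difference of these responses was -1.005 (-1.95 to -0.06, unadjusted p = 0.0394, limma adjusted p = 1.00), so it did not pass. Between genotypes under PB1046 it was -0.77 (-1.44 to -0.10), and -0.45 without mdx:Utrn+/- PB1046 replicate 3. With PB1046 in mdx, 8 of 8 fibroblast markers and 8 of 8 macrophage markers were also higher on the scaled values (median log2 difference 0.56 and 0.42). So were 6 of 7 smooth muscle and pericyte markers (0.63) and 5 of 5 erythroid markers (1.93), while 9 of 10 cardiomyocyte markers were lower (-0.28). In mdx PB1046 replicates 1, 2 and 3 the erythroid markers summed to 144, 73.7 and 1098 TPM, against 19.1 to 99.2 TPM in mdx saline. The macrophage markers summed to 318, 289 and 838 TPM there, against 118 to 668 TPM in mdx saline. Rn45s, a ribosomal RNA precursor, was 1039 to 10402 TPM in mdx saline and 11570 to 25861 TPM in mdx PB1046. The part of these in Slc25a25 was not tested. Naif1 overlaps Slc25a25 on the opposite strand. The kit keeps strand, but whether the counting used it is not given in the sources used here.

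Because CREB was a named subject of the series, the CREB element TGACGTCA was searched on both strands in the RefSeq promoter windows (GRCm38.p6, 250 bases before to 50 after a start). Windows were found for 31 of the 41 members, 39 windows in all. The element is its own reverse complement, and 2 of 39 windows held it (5.13%), against 1.79% of 32851 windows of all genes. Counted by gene this was 2 of 31 members (6.45%), against 3.51% of the 9392 tested genes with a window. They belonged to Slc25a25 and to Slc25a36, a pyrimidine nucleotide carrier, and are printed with the element in capitals:
Slc25a25, chr2:32424199-32424226, minus strand: ctgcaagcagTGACGTCAgtcctgatct
Slc25a36, chr9:97111185-97111212, minus strand: gcgaacctcgTGACGTCAcgcggcctaa
The element began at -150 from an internal start of Slc25a25, which has 3 windows, and at -161 from the start of Slc25a36. The estrogen-related receptor element TNAAGGTCA, searched on both strands, was in 0 of the 39 windows (0.905% of tested genes). An NF-kB element was also in 0 (0.479% of tested genes). An element of nuclear respiratory factor was in those of Slc25a3 and Slc25a31, 6.45% of members against 11.4% of tested genes. A match is a description of the letters only. Slc25a36 itself averaged 14.2 TPM and separated none of the compared groups on the scaled values.

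The carriers of aspartate, glutamate and carboxylates form the malate-aspartate shuttle and the export of citrate and dicarboxylates. Slc25a11, the oxoglutarate/malate carrier of that shuttle, was 676, 504 and 495 scaled TPM in mdx saline, 696, 424 and 412 in mdx PB1046, 836, 688 and 604 in mdx:Utrn+/- saline and 682, 448 and 734 in mdx:Utrn+/- PB1046. Slc25a12, the aspartate/glutamate carrier typical of heart and brain, was 130, 101 and 101, then 139, 92.1 and 75.9, then 121, 124 and 123, then 131, 91.2 and 140 in the same order of groups. Slc25a13, its counterpart typical of liver, was 101, 56.7 and 68.3, then 103, 55.3 and 45.7, then 78.2, 76.6 and 75.4, then 82.0, 49.9 and 94.4. All groups overlapped for these 3 genes, and the mdx:Utrn+/- saline libraries were close together for Slc25a12 and Slc25a13. Slc25a12 exceeded Slc25a13 by 1.52 ± 0.252 fold in mdx saline, 1.56 ± 0.180 in mdx PB1046, 1.60 ± 0.0433 in mdx:Utrn+/- saline and 1.64 ± 0.173 in mdx:Utrn+/- PB1046. Exact permutation tests of this ratio gave log2 differences of 0.04 with PB1046 (p = 0.685) and 0.08 between genotypes (p = 0.395). The glutamate carrier Slc25a22 averaged 17.7 TPM, the dicarboxylate carrier Slc25a10 8.01 TPM, the citrate carrier Slc25a1 6.94 TPM and the glutamate carrier Slc25a18 1.03 TPM. In this role 6 of 7 members were higher in mdx:Utrn+/- under either treatment (median log2 0.16 with saline and 0.25 with PB1046). Of all genes 54.7% and 50.7% were higher. Without scaling these were 2 and 4 of 7 members, beside 25.8% and 19.9% of all genes.

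Among the carriers of carnitine and amino acids, Slc25a29 gave the smallest unadjusted p of any member. Slc25a29 takes basic amino acids such as arginine and lysine into mitochondria and lies at chr12:108825878-108835876 (mm10, minus strand). It was 6.88, 7.74 and 8.90 scaled TPM in mdx saline, 10.9, 5.35 and 7.24 in mdx PB1046, 17.1, 15.8 and 11.7 in mdx:Utrn+/- saline and 8.04, 5.18 and 7.42 in mdx:Utrn+/- PB1046. The 3 mdx:Utrn+/- saline libraries were higher than the other 9, which overlapped. With PB1046 the log2 difference was -1.01 in mdx:Utrn+/- (95% interval -1.55 to -0.46, unadjusted p = 0.00168, limma adjusted p = 0.997) and -0.04 in mdx (-0.59 to 0.50), where it was 0.09 without scaling. The difference of the responses was -0.97 (-1.74 to -0.20, unadjusted p = 0.0181, limma adjusted p = 1.00). Between genotypes under saline it was 0.83 (0.29 to 1.38, unadjusted p = 0.00612, limma adjusted p = 0.837), and under PB1046 -0.14 (-0.68 to 0.41, and -0.34 without scaling). Averaged over genotypes the PB1046 difference was -0.53 (-0.91 to -0.14), and averaged over treatments the genotype difference was 0.35 (-0.04 to 0.73). The latter was 0.12 without scaling and 0.23 without mdx PB1046 replicate 2. These comparisons share the mdx:Utrn+/- saline libraries. The gene was counted by 81 to 317 reads per library. In the authors' deposited table Slc25a29 had an unadjusted p-value of 0.00131 and a false discovery rate of 1 for PB1046 in mdx:Utrn+/-. The endothelial marker sum was 261 to 384 TPM in mdx:Utrn+/- saline and 310 to 1178 TPM in mdx:Utrn+/- PB1046. On the scaled values 10 of 10 endothelial markers were higher under PB1046 in mdx:Utrn+/- (median log2 0.60). There 8 of 8 macrophage and 8 of 8 fibroblast markers were lower (-0.49 and -0.27). Between genotypes under saline 10 of 10 endothelial markers were lower (-0.79) and 8 of 8 macrophage markers higher (0.37), again on the scaled values. The macrophage marker sum was 843, 163 and 155 TPM in mdx:Utrn+/- saline replicates 1 to 3. It was 206, 668 and 118 TPM in mdx saline and 168, 267 and 404 TPM in mdx:Utrn+/- PB1046. The groups overlapped in this sum, and the high value in mdx:Utrn+/- saline came from replicate 1 alone. The part of these markers in Slc25a29 was not tested.

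Slc25a20, which exchanges acylcarnitine for carnitine and so admits long-chain fatty acids, was 209, 96.1 and 109 scaled TPM in mdx saline, 217, 139 and 117 in mdx PB1046, 190, 183 and 119 in mdx:Utrn+/- saline and 208, 120 and 215 in mdx:Utrn+/- PB1046. The spread within a group was wide, and all groups overlapped. The other members of this role were the glycine carrier of heme synthesis Slc25a38 (mean 20.8 TPM), Slc25a47 (10.1 TPM), the ornithine carriers Slc25a15 (9.77 TPM) and Slc25a2 (0.931 TPM), the branched-chain amino acid carrier Slc25a44 (7.25 TPM) and Slc25a45 (5.63 TPM). Slc25a47, known as a carrier of liver, was wholly higher in mdx:Utrn+/- than in mdx under PB1046 on the scaled values (7.51 to 13.3 against 5.24 to 7.47 scaled TPM), but not on the deposited TPM.

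**Figure D3:**
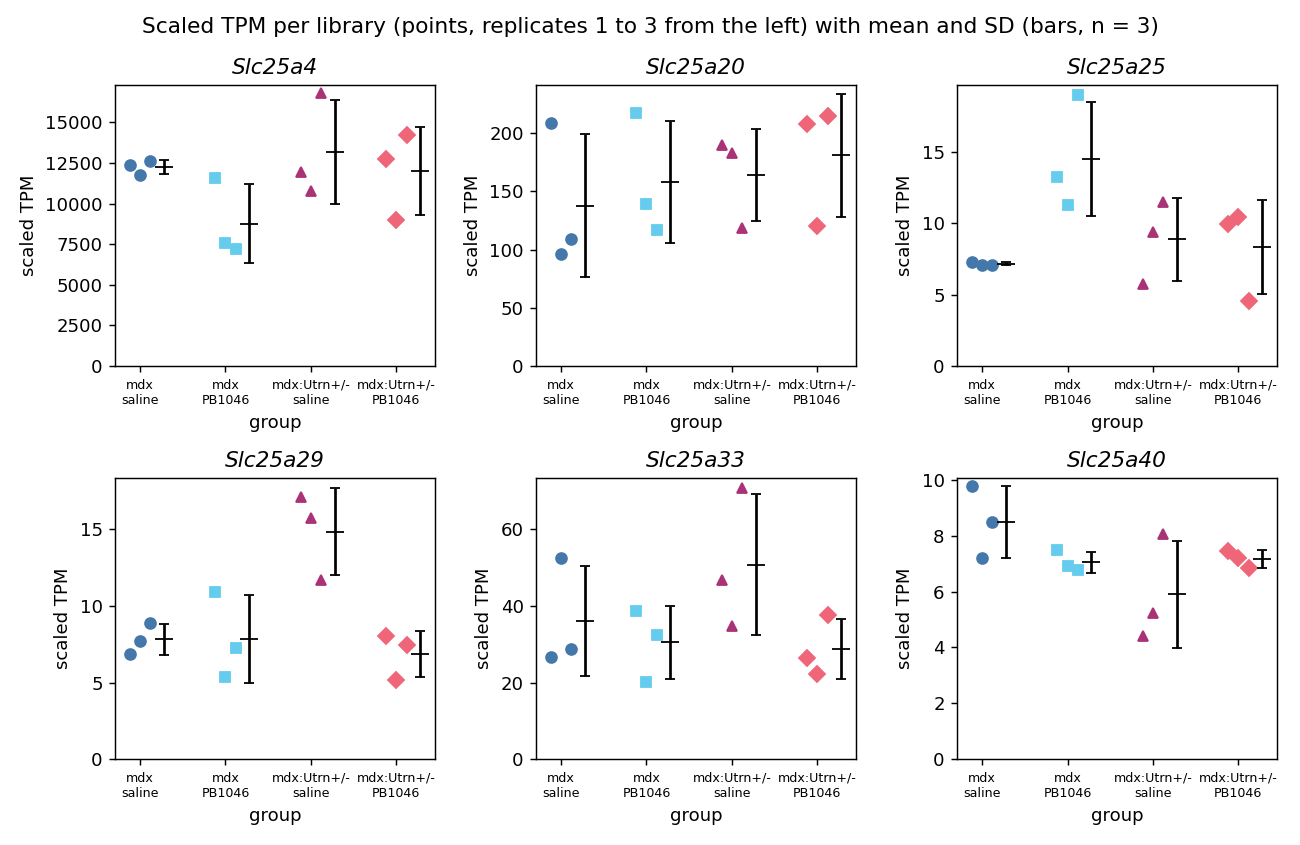
Scaled TPM of Slc25a4, Slc25a20, Slc25a25, Slc25a29, Slc25a33 and Slc25a40 in each library, with replicates 1 to 3 from the left in each group and the mean with its SD (n = 3) as a bar beside them. The 3 mdx:Utrn+/- saline libraries of Slc25a29 lie above the other 9, and the 3 mdx PB1046 libraries of Slc25a25 lie above those of mdx saline.

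The carriers of cofactors, nucleotides and one-carbon units were mostly of middle level. Slc25a33, which imports pyrimidine nucleotides, was 26.6, 52.5 and 28.8 scaled TPM in mdx saline, 38.7, 20.1 and 32.4 in mdx PB1046, 46.7, 34.7 and 70.7 in mdx:Utrn+/- saline and 26.4, 22.2 and 37.5 in mdx:Utrn+/- PB1046. The groups overlapped, and the log2 difference with PB1046 in mdx:Utrn+/- was -0.77 (95% interval -1.52 to -0.02, unadjusted p = 0.0446, limma adjusted p = 0.997). It was -0.51 without mdx:Utrn+/- saline replicate 3.

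Slc25a16, which is linked to the import of coenzyme A, was 13.4, 6.60 and 9.22 scaled TPM in mdx saline, 14.9, 14.9 and 10.9 in mdx PB1046, 8.24, 10.6 and 6.53 in mdx:Utrn+/- saline and 10.6, 9.12 and 11.5 in mdx:Utrn+/- PB1046. Averaged over genotypes its log2 difference with PB1046 was 0.38 (95% interval 0.00 to 0.76 after rounding, unadjusted p = 0.0509). The groups overlapped in both genotypes on the scaled values, but in mdx they did not on the deposited TPM. Slc25a32, the carrier of folate and FAD, was 4.24, 4.35 and 5.49, then 4.74, 6.83 and 5.52, then 2.68, 4.06 and 3.29, then 4.04, 4.83 and 3.83 in the same order of groups. Under saline the mdx:Utrn+/- libraries all lay below those of mdx, and averaged over treatments the genotype difference was -0.37 (-0.67 to -0.07, unadjusted p = 0.0187, limma adjusted p = 0.853). It was -0.58 without scaling and -0.21 with 5 added in place of 1. Other members of the role were the NAD+ carrier Slc25a51 (27.3 TPM), the S-adenosylmethionine carrier Slc25a26 (25.2 TPM), the coenzyme A carrier Slc25a42 (21.5 TPM) and the peroxisomal carrier Slc25a17 (21.1 TPM).

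Of the carriers tied to iron, manganese or glutathione, Slc25a39, a glutathione importer, was the most abundant at 112 TPM. Its close relative Slc25a40 was 9.76, 7.19 and 8.50 scaled TPM in mdx saline, 7.47, 6.91 and 6.76 in mdx PB1046, 4.41, 5.24 and 8.07 in mdx:Utrn+/- saline and 7.44, 7.21 and 6.83 in mdx:Utrn+/- PB1046. Replicate 3 of mdx:Utrn+/- saline lay among the mdx saline libraries on this scale, though below them on the deposited TPM, and the log2 difference between genotypes under saline was -0.48 (95% interval -0.92 to -0.05, unadjusted p = 0.0331, limma adjusted p = 0.837, and -0.32 with 5 added in place of 1). The mitoferrins bring iron into the matrix. Slc25a28 was 28.2, 42.9 and 46.9 scaled TPM in mdx saline, 38.5, 36.5 and 37.3 in mdx PB1046, 46.6, 33.8 and 49.2 in mdx:Utrn+/- saline and 41.4, 48.2 and 32.8 in mdx:Utrn+/- PB1046. Slc25a37, the mitoferrin of developing red cells, was 10.7, 15.9 and 17.1, then 12.1, 12.4 and 10.97, then 11.1, 10.4 and 17.3, then 13.8, 14.2 and 10.2 in that order. All groups overlapped for both. Slc25a28 exceeded Slc25a37 by 2.69 ± 0.0576 fold in mdx saline, 3.17 ± 0.232 in mdx PB1046, 3.43 ± 0.686 in mdx:Utrn+/- saline and 3.20 ± 0.193 in mdx:Utrn+/- PB1046 (SD, n = 3 each). The mdx saline ratios (2.63 to 2.75) lay below those of the other 9 libraries (2.85 to 4.19). Exact permutation tests gave log2 differences of 0.15 between genotypes (p = 0.105, adjusted 0.345) and 0.08 with PB1046 (p = 0.45, adjusted 0.675).

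The members that resemble uncoupling proteins were low: Slc25a27 averaged 6.20 TPM, Slc25a14 3.73 TPM and Slc25a30 3.31 TPM. Slc25a27 was wholly lower in mdx with PB1046 (3.66 to 5.69 scaled TPM) than with saline (5.83 to 8.58), with a log2 difference of -0.60 (95% interval -1.24 to 0.04). The proteins of other or unassigned substrate were Slc25a34 (105 TPM), Slc25a46 (36.0 TPM), which sits in the outer membrane and acts in mitochondrial shape, and Slc25a35 (2.83 TPM). Slc25a34 was 0.53 higher on the log2 scale with PB1046 in mdx (-0.03 to 1.09) and -0.04 with PB1046 in mdx:Utrn+/- (-0.60 to 0.51, and 0.15 without scaling). The groups overlapped in both genotypes on the scaled values, but in mdx they did not overlap on the deposited TPM.

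The carriers' levels were also described across the 12 libraries together. The leading component of their standardized log2 levels held 36.8% of the variance, with 26 members of positive and 15 of negative weight. It was taken around each gene's mean over all 12 libraries, so it mixes variation between groups with variation within them. The share for other sets of genes was not computed. The most positive were Slc25a46, Slc25a12, Slc25a13, Slc25a11 and Slc25a20, and the most negative Slc25a45, Slc25a24, Slc25a30, Slc25a32 and Slc25a1. The 5 libraries with a negative score were mdx PB1046 3 (-5.67), mdx saline 2 (-4.63), mdx saline 3 (-4.21), mdx:Utrn+/- PB1046 2 (-4.00) and mdx PB1046 2 (-2.46), and the other 7 scored 1.19 to 4.54. The 5 came from 3 of the 4 groups. Their endothelial marker sum was 684 to 1510 TPM against 226 to 426 TPM in the other 7. The same 5 also had the 5 highest scaling factors (1.02 to 1.28, against 0.827 to 1.01), and the component was computed on values divided by these factors. The part of either in the component was not tested.

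**Figure D4:**
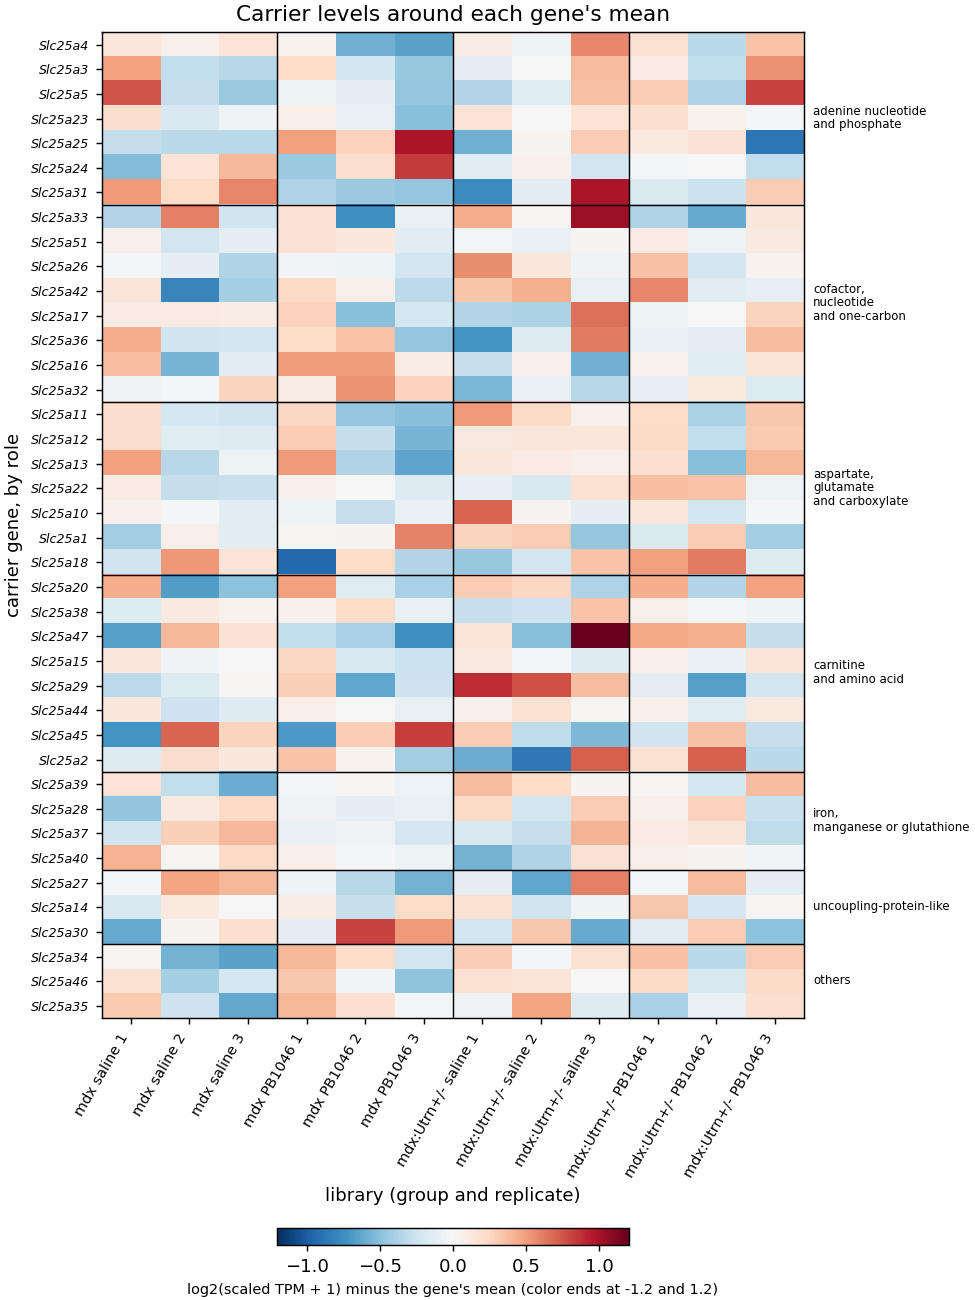
Log2(scaled TPM + 1) of each carrier minus its mean over the 12 libraries, with libraries in columns by group, carriers in rows by role, red above and blue below the mean. Slc25a12, Slc25a13, Slc25a11 and Slc25a20 are blue together in mdx saline 2, mdx PB1046 2 and 3 and mdx:Utrn+/- PB1046 2. They also lie below their means in mdx saline 3, Slc25a13 only slightly. Slc25a29 is red in the 3 mdx:Utrn+/- saline libraries.

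Genes that work beside the carriers were also measured, and none passed the threshold. Of the family members under other names, Mtch1 averaged 186 scaled TPM, Mtch2 124, Ucp3 30.04 and Ucp2 16.3, while Ucp1, the uncoupling protein of brown fat, was at 0 to 0.163 TPM. The machinery that carries these proteins to and into the inner membrane (Tomm70a, Tomm20, Tomm40, Agk and the small Timm genes with Timm22) was represented by 11 genes. All 11 were higher in mdx:Utrn+/- than in mdx on the scaled values, under saline (median log2 0.37) and under PB1046 (0.25). Without scaling 7 and 6 of 11 were higher. Of all genes, 54.7% and 50.7% were higher in these comparisons on the scaled values, and 25.8% and 19.9% without scaling. These shares also apply to the lists below. Of 10 cardiomyocyte markers, 8 and 10 were higher on the scaled values. By group mean of the deposited TPM, only Myl3 and Mb were higher under saline, and all but Pln under PB1046. The part of these markers was not tested. Averaged over treatments 1 of the 11, Timm8a1, had an unadjusted p under 0.05, against 3.7 % of all genes (log2 difference 0.43, limma adjusted p = 0.853). Of 12 enzymes and pyruvate carrier subunits that use carrier substrates, 9 were higher in mdx:Utrn+/- under saline and 10 under PB1046. Without scaling these were 6 and 8 of 12. Ckmt2, the mitochondrial creatine kinase that takes up the ATP exported by Slc25a4, averaged 3593 scaled TPM in mdx saline and 2103 in mdx PB1046 (log2 difference -0.82, unadjusted p = 0.0323, limma adjusted p = 1.00). In that comparison 1 of the 12, Ckmt2, had an unadjusted p under 0.05, against 3.09 % of all genes. Ckmt2 averaged 3258 in mdx:Utrn+/- saline and 3390 in mdx:Utrn+/- PB1046. Of 8 genes of the outer membrane channel and the calcium uniporter, 7 were higher in mdx:Utrn+/- under either treatment, and 3 and 2 without scaling. Averaged over treatments 1 of the 12, Cpt1b (log2 difference 0.42), and 1 of these 8, Smdt1 (0.39), also had an unadjusted p under 0.05.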

How the data were processed

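Deposited values per library are TPM, per the column sums of the authors' table, although the file is named as counts. The submitters' processing notes name edgeR and the mm10 build. For the aligner, counter and gene lengths, nothing is stated in the sources used here. The table also holds the authors' log2 fold changes, p-values and false discovery rates, and p-values of Slc25a29 are quoted from that deposited table. Start coordinates are given plus 1.

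TPM were divided by trimmed-mean factors (30% of log ratios and 5% of levels trimmed) and used as log2(TPM + 1). The 12798 genes that reached 1 TPM in 3 or more libraries entered limma 3.58.1 in R 4.3.3 (trend and robust, a mean per group, 8 residual degrees of freedom before moderation). The Benjamini-Hochberg threshold over those genes was 0.05. Whole reads were recovered from TPM steps for 100% of genes within 0.1 reads, giving 7234100 to 25458194 reads per library, and entered limma-voom as an alternative. The smallest whole numbers that fit were taken, so the reads of genes detected in very few libraries are lower limits. The fit was tested on simulated data. No pair of libraries of a group was a duplicate (chi-square per gene 28.1 to 334 over 12 pairs).

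The family, and so its members, the role groups and the lists were chosen with earlier results of these data known, while the rule for a row used name and level alone. Values in every library are given for the 6 highest members, the 2 smallest p per comparison and the members in ratios. For 1 member the values are not reported here, although it stays in all counts. Slc25a27, Slc25a34 and Slc25a47 were added after their values were seen, as were the genes outside the family named with values. Alternatives were other factors or none, added values of 0.1 and 5, a filter at 5 TPM or none, limma-voom, a replicate block and each library left out.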

Additional observations from a re-analysis of the deposited data

How the results depend on the processing

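In all alternatives run, 0 carriers passed the adjusted threshold in any comparison. Without the scaling factors the median log2 difference of the carriers with PB1046 was 0.11 in mdx, 0.16 in mdx:Utrn+/- and 0.19 averaged over genotypes. It was then -0.20 and -0.11 between genotypes under saline and PB1046 and -0.12 averaged over treatments, and the medians of all genes moved alike (0.14, 0.15 and 0.14, then -0.20, -0.20 and -0.21). Leaving out mdx:Utrn+/- saline replicate 3 brought 1 gene of all tested past the threshold in the difference of responses (0 to 1 over the libraries left out). It raised the carriers at an unadjusted p under 0.05 from 3 to 8 there and from 2 to 7 between genotypes under saline, where all genes went from 292 to 1261 and from 531 to 1941. Without mdx PB1046 replicate 1 all genes at an unadjusted p under 0.05 went from 214 to 1026 between genotypes under PB1046 and from 474 to 1648 averaged over treatments. Carriers higher in mdx:Utrn+/- under PB1046 were 23 without mdx PB1046 replicate 3 (0 at an unadjusted p under 0.05) and 32 without replicate 1. Carriers higher with PB1046 in mdx:Utrn+/- were 18 to 29, the latter without mdx:Utrn+/- PB1046 replicate 2. The cause was not tested. The log2 ratio of Slc25a4 to Slc25a5 between genotypes was -0.11 without mdx saline replicate 1 (range -0.11 to 0.19). That of Slc25a12 to Slc25a13 with PB1046 was -0.018 without the same library and -0.0030 without mdx:Utrn+/- PB1046 replicate 2 (range -0.018 to 0.098). Slc25a29 with PB1046 in mdx:Utrn+/- ranged from -1.16 to -0.82 over the libraries left out, and Slc25a25 in mdx from 0.69 to 1.02.

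With a replicate block 0 carriers passed in any comparison, and their smallest adjusted p was 0.66. The block moved the genes at an unadjusted p under 0.05 between genotypes from 531 to 956 under saline, from 214 to 323 under PB1046 and from 474 to 911 averaged over treatments. Libraries with the same number correlated from -0.44 to 0.49 in their deviations from the group means, and 3 of 12 correlated best with their own number, so the numbers were not taken as pairs. Groups of 3 and 4 to 5 reads limit what can be said of the scarcest carriers.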
